A study of Mus musculus with 6 samples.

Results

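Cytochrome P450 enzymes of families 1, 2 and 3 were described in mouse livers in which autophagy of lipid droplets had been induced by a synthetic adapter protein. The members were all genes of the deposited table whose symbol begins with Cyp1a, with Cyp2 and a single letter from a to j, or with Cyp3a, followed by a number, without symbols of pseudogenes. This gave 54 members among the 24346 rows of the table, while 2 pseudogene symbols (Cyp2c53-ps and Cyp2d37-ps) were left out. RNA sequencing covered 6 livers, 3 of control mice (LDTS-LIR mut) and 3 of mice with induced lipophagy (LDTS-eLIR). All were male C57BL/6J mice that had been 8 weeks old when they were put on CDAHFD (a high-fat diet that lacks choline and gives amino acids in free form), a model of non-alcoholic steatohepatitis (NASH). After 6 weeks each received AAV8, a virus that carries genes into the liver, by vein and was returned to normal chow for 2 weeks. In both groups the TBG promoter, which is active in hepatocytes, drove a protein with a lipid droplet-targeting sequence (LDTS). In lipophagy mice it carried an engineered LC3-interacting region (eLIR), which recruits autophagosomes, and in control mice a LIR mutated to abolish that binding. Both groups had thus received diet, virus and droplet-targeted protein, and no group without them was used here, so each change below is lipophagy against control in recovering livers.

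P450 enzymes are haem proteins of the endoplasmic reticulum that insert an oxygen atom into lipophilic compounds, with electrons passed on by P450 reductase (Por) and cytochrome b5 (Cyb5a). Families 1, 2 and 3 oxidise drugs, toxins, steroids and polyunsaturated fatty acids, and their mouse genes multiplied into clusters of close copies. Many are made mostly by pericentral hepatocytes, around the central vein of the liver lobule, and several differ between the sexes or are induced through the receptors AhR, CAR and PXR.

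In lipophagy livers 17 of the 18 members at a mean of 100 FPKM or more (fragments scaled to transcript length and to the mapped fragments of the library) were listed higher, as were 86% of the other genes at that level. On the log2(FPKM + 1) scale, which understates the changes of low genes, the largest changes of tested members apart from the low Cyp2b9 were in 4 genes of the Cyp2c cluster, Cyp2c37, Cyp2c29, Cyp2c54 and Cyp2c50, whose mean levels were 1.45 to 1.99 times those of controls. No member passed the threshold after adjustment. The FPKM summed over the 54 members was 12525 ± 67.9 in control and 15324 ± 1076 in lipophagy livers (SD, n = 3), a ratio of 1.22. In single livers the sum was 12601, 12469 and 12504 in controls and 15029, 16517 and 14426 in lipophagy livers, so the groups did not overlap. The sum of all rows of the table moved in the same direction, from 622696 to 681138 in controls and from 709993 to 782392 in lipophagy livers. Members made up 1.84% to 2.02% of that sum in controls and 1.92% to 2.25% in lipophagy livers, ranges that overlapped. In bulk tissue, fewer cells of a type and less RNA per cell cannot be told apart, and this holds for every level below.

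Of the 54 members, 6 were listed at 0 in all livers (Cyp2b19, Cyp2b23, Cyp2c66, Cyp2j12, Cyp2j13 and Cyp3a41b), and 11 others had a mean under 0.5 FPKM and were not tested. The remaining 37 were tested with limma on log2(FPKM + 1) among 11493 genes, and p-values were adjusted by Benjamini-Hochberg over the whole set. Among the 37, 32 had a log2 change above 0, against 54.5% of all tested genes, and 5 were below 0. No member had an adjusted p below 0.05, a threshold that 0.0261% of all tested genes passed, and the lowest adjusted p by limma was 0.119, for Cyp2j5. At an unadjusted p below 0.05, 10 members (27%) were higher, against 11.5% of all tested genes, and 0 were lower, against 7.97%. In 11 members (29.7%) every lipophagy liver was above every control, against 15.4% of all tested genes, and in 0 members every lipophagy liver was below every control, against 10.8%.

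Much of this difference from the background went with expression level. Among the genes outside the families, the median log2 change was -0.04 at means of 0.5 to 10 FPKM, 0.11 at 10 to 100 FPKM and 0.19 at 100 FPKM or more. The members' medians in the same classes were 0.04 (11 genes), 0.21 (8 genes) and 0.26 (18 genes). Of the 18 members at 100 FPKM or more, 17 had a change above 0, against 86% of the 828 other genes at this level. At an unadjusted p below 0.05, 9 of the 18 (50%) were higher, against 35.4%, and 10 (55.6%) did not overlap between groups, against 41.2%. By size, 3 of the 18 (Cyp2c29, Cyp2c50 and Cyp2c54) had a log2 change of at least 0.5, against 3.86% of those other genes. All are genes of the Cyp2c cluster. Over all 37 tested members the count was 5, against 1.54% of all tested genes, with Cyp2c37 of that cluster and the low Cyp2b9 added. Close copies in a cluster do not count as separate observations. With quantile normalization, which gives every liver the same distribution of values, the members' median log2 change dropped from 0.25 to 0.06 and that of the other genes at 100 FPKM or more from 0.19 to 0.01. In that setting 11 members had a change below 0, and 5 were higher at an unadjusted p below 0.05, against 6.48% of all tested genes. These were Cyp2c29 (log2 change 0.73), Cyp2c37 (0.85), Cyp2d10 (0.15), Cyp2j5 (0.19) and Cyp3a44 (0.37). The other 6 of the 10 were no longer past that p, at 0.64 for Cyp2c54, 0.35 for Cyp2c50, 0.23 for Cyp3a11, 0.12 for Cyp2c70, 0.04 for Cyp2f2 and 0.02 for Cyp2a12. Without lipophagy liver 1 the members' median was 0.17.

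**Figure D1:**
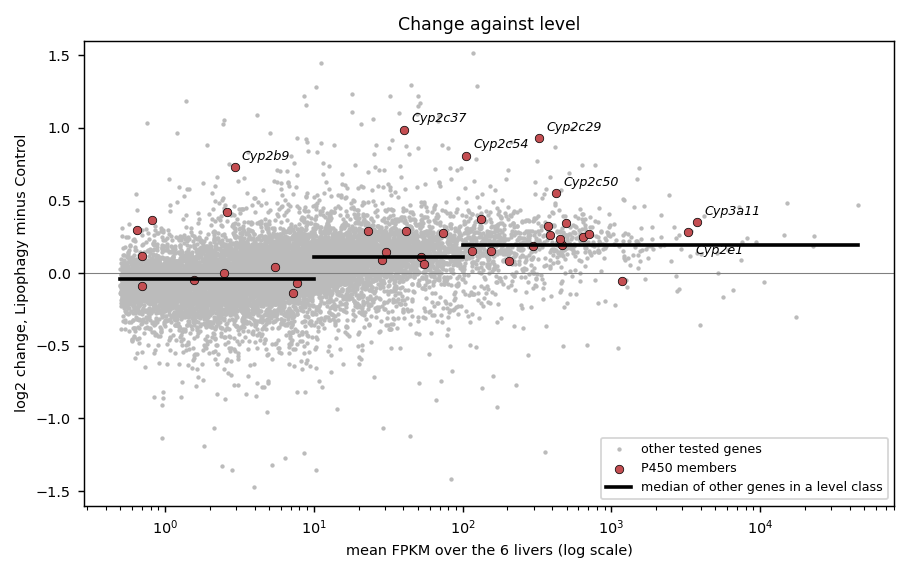
Log2 change between lipophagy and control livers (vertical axis) against the mean FPKM over the 6 livers (horizontal axis, log scale) for the tested members (red) and the other tested genes (grey), with 20 other genes outside the plotted range of 1.6 in either direction. The black lines, medians of the other genes, climb from -0.04 to 0.19 with level, and Cyp2c29, Cyp2c37, Cyp2c54 and Cyp2c50 lie above the line of their class.

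The sequences before the start site are shown for 3 of the Cyp2c genes with the largest changes, for Cyp3a11, the most abundant member, and for Cyp2j5, the member with the lowest p. They come from RefSeq promoters on GRCm38, the mouse genome release also called mm10, which the submitters' processing notes name as the build of the files. Each is the 150 bases before the outermost annotated start of the gene, 5′ to 3′ on its own strand. Capitals mark matches to CAAAGNNCA, letters of the kind bound by the hepatocyte factor HNF4A, searched on both strands.
Cyp2c29: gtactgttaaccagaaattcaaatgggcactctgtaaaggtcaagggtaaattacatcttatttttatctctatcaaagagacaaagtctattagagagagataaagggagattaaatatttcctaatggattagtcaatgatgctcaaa
Cyp2c37: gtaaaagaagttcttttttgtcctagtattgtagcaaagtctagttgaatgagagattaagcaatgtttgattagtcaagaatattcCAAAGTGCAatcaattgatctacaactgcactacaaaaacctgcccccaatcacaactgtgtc
Cyp2c50: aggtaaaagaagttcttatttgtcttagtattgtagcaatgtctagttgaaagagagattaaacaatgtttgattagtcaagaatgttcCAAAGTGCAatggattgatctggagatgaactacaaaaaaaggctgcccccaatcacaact
Cyp3a11: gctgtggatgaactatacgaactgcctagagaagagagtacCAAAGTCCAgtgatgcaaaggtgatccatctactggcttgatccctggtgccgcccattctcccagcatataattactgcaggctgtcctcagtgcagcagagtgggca
Cyp2j5: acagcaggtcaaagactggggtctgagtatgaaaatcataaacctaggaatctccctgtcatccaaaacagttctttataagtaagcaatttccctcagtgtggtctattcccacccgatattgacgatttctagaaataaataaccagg

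These windows lie at chr19:39286894-39287043 (+ strand) for Cyp2c29, chr19:39992274-39992423 (+) for Cyp2c37, chr19:40089529-40089678 (+) for Cyp2c50, chr5:145879855-145880004 (- strand) for Cyp3a11 and chr4:96664172-96664321 (-) for Cyp2j5. The promoters of Cyp2c37 and Cyp2c50 were 84.3% identical over the 250 bases before the listed start and held the same 9 letters, CAAAGTGCA, beginning 63 and 61 bases before it. The Cyp2c29 promoter was 57.6% identical to that of Cyp2c37 and had no match. Over 250 bases, CAAAGNNCA was found in 23 of 47 member promoters (48.9%) and in 5.47% of 27025 promoters of the genome. TTGCNNAA, letters of the C/EBP type, was found in 13 of 47 (27.7%) against 9.55%. TTCNNNGAA, of the STAT type, was found in 2 of 47 (4.26%) against 7.18%, and GCGTG, the core bound by AhR, in 6 of 47 (12.8%) against 28.2%. Members that arose as copies share such letters through their common sequence, so the matches describe the windows and do not count as separate observations. Cyp2c54 had no entry among these promoters.

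The Cyp2c subfamily turns arachidonic and other polyunsaturated fatty acids into epoxides and hydroxy acids and had the largest ratio of lipophagy to control among the abundant subfamilies. Its summed FPKM was 1601, 1398 and 1441 in controls and 2232, 2160 and 1777 in lipophagy livers, a ratio of mean sums of 1.39. The groups did not overlap, and lipophagy liver 3 was lowest among the lipophagy livers. Of 15 genes 12 were tested, 9 with a change above 0 (54.5% of all tested genes) and 5 of these with an unadjusted p below 0.05 (11.5% of all tested genes), and the median log2 change was 0.15. The median gene thus changed less than the sum did. Of those 5, all but Cyp2c37 were at 100 FPKM or more. At that level 86% of the genes outside the families had a change above 0, and 35.4% were higher at that p. With quantile normalization only Cyp2c29 and Cyp2c37 of the Cyp2c genes had an unadjusted p below 0.05.

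Cyp2c29, an arachidonic acid epoxygenase that is also induced through CAR, was at 253, 202 and 200.01 FPKM in controls and at 552, 495 and 259 in lipophagy livers. Lipophagy livers 1 and 2 were far above the controls, and lipophagy liver 3 was just above control liver 1. The mean was 218 ± 30.2 FPKM in control and 435 ± 155 FPKM in lipophagy livers (SD, n = 3). The log2 change was 0.93 with a 95% interval of 0.32 to 1.53, and its adjusted p by limma was 0.159. Without lipophagy liver 3 the log2 change was 1.26 and the adjusted p by limma 0.0417. Leaving out any other liver gave changes of 0.72 to 1.04 and adjusted p-values by limma of 0.205 to 0.354. With quantile normalization the change was 0.733 and the adjusted p by limma 0.261.

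Cyp2c37, which makes hydroxy acids from arachidonic acid, was at 43.6, 19.5 and 20.1 FPKM in controls and at 70.4, 44.0 and 45.9 in lipophagy livers. Control liver 1 was nearly as high as lipophagy liver 2, so the groups were separate only by a narrow margin. The log2 change was 0.99 with a 95% interval of 0.28 to 1.69, and its adjusted p by limma was 0.176. Cyp2c50, a close relative that makes epoxides, was at 434, 288 and 317 FPKM in controls and at 575, 479 and 453 in lipophagy livers, again with control liver 1 and lipophagy liver 1 the highest of their groups. Its log2 change was 0.55 with an interval of 0.17 to 0.93 and an adjusted p by limma of 0.168.

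Cyp2c54 was at 121, 52.8 and 62.3 FPKM in controls and at 161, 109 and 124 in lipophagy livers. Control liver 1 lay above lipophagy liver 2, so the groups overlapped. The log2 change was 0.81 (interval 0.15 to 1.47, adjusted p by limma 0.204). Control liver 1 thus had the highest control value of Cyp2c37, Cyp2c50 and Cyp2c54 alike. The transcripts of these 3 genes were 92.7% to 95.8% identical, and 4.7%, 8.87% and 7.59% of the 100-base stretches of Cyp2c37, Cyp2c50 and Cyp2c54 occurred in another gene's transcript too. Fragments from such stretches can be assigned to any of the copies, and the split among these 3 genes is uncertain to that extent. For Cyp2c29 the share was 2.24%.

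Cyp2c70, which makes muricholic acids, the rodent-specific bile acids, was at 306, 339 and 356 FPKM in controls and at 383, 483 and 393 in lipophagy livers. The groups did not overlap, with a log2 change of 0.32 (interval 0.06 to 0.59, adjusted p by limma 0.204). Of its 100-base stretches 0 were shared with another gene.

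The other tested Cyp2c genes had smaller changes than these 5. Cyp2c38 had a log2 change of -0.14, Cyp2c39, which oxidises retinoic acid, of -0.09, and Cyp2c55 of -0.07. Cyp2c40 was at 0.00, Cyp2c44 at 0.09, and Cyp2c67 and Cyp2c68 both at 0.15, and none of these 7 had an unadjusted p below 0.05. Single livers set the sign or size of several of these. Cyp2c55 was at 0.18 without lipophagy liver 3, Cyp2c38 at -0.05 without either lipophagy liver 3 or control liver 2, Cyp2c67 at -0.02 and Cyp2c40 at -0.36 without control liver 1. The intervals were broad for Cyp2c40 (-0.75 to 0.75) and narrower for Cyp2c44 (-0.15 to 0.33). Cyp2c40 shared 41.7% of its stretches with other genes, mostly Cyp2c69, and its value is uncertain.

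On chromosome 19 the Cyp2c genes lay between 39006940 and 44029256. Cyp2c29 (39287044 to 39330713) was separated from Cyp2c37 (39992424 to 40012243) by genes whose groups overlapped, Cyp2c39, Cyp2c38, Cyp2c67, Cyp2c68 and Cyp2c40, and by Cyp2c69, which was not tested. Cyp2c37, Cyp2c54 (40037939 to 40073845) and Cyp2c50 (40089679 to 40113955) followed each other, with Cyp2c70 next. In the plot of the cluster the changes therefore form a high point at Cyp2c29, a flat stretch, and a second group that falls in size from Cyp2c37 to Cyp2c70.

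**Figure D2:**
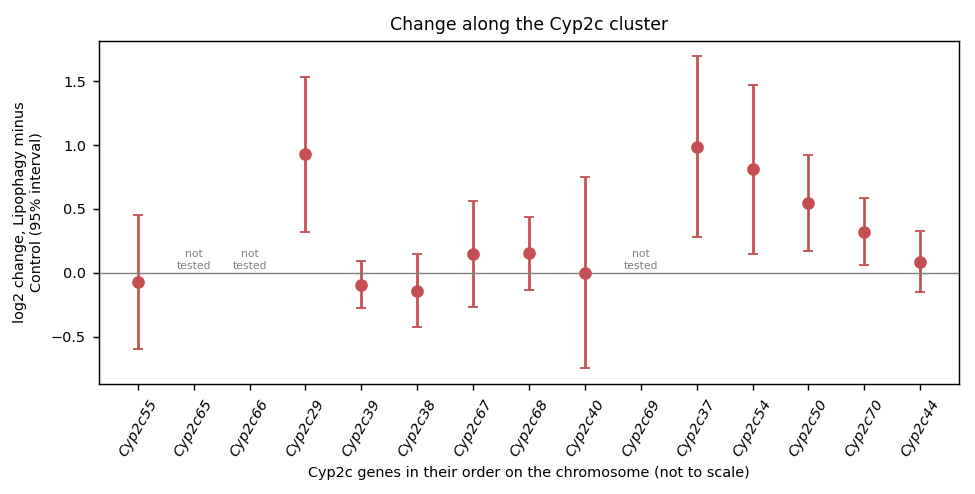
Log2 change of each tested Cyp2c gene (points, with 95% intervals from limma) in the order of the genes on chromosome 19, spaced evenly and not to scale. Cyp2c29, Cyp2c37, Cyp2c54, Cyp2c50 and Cyp2c70 have intervals above 0, and the intervals of the other tested genes include 0.

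Cyp3a enzymes, which oxidise many drugs and steroids, made up the largest share of the members' FPKM (29.8%). Their summed FPKM was 3155, 3922 and 3950 in controls and 4695, 5141 and 4070 in lipophagy livers. The groups did not overlap, although lipophagy liver 3 was close to the higher controls. Nearly all of the sum was Cyp3a11, the main target of PXR among them, at 2811, 3573 and 3571 FPKM in controls and 4260, 4739 and 3695 in lipophagy livers. Its log2 change was 0.35 (interval 0.02 to 0.68, adjusted p by limma 0.240). Cyp3a25 was at 274, 273 and 286 FPKM in controls and at 345, 315 and 291 in lipophagy livers. The groups did not overlap, yet the log2 change of 0.19 had an interval from -0.02 to 0.39. It was 0.13 without lipophagy liver 1 and 0.01 with quantile normalization. Cyp3a13, Cyp3a59 and Cyp3a44 had log2 changes of 0.11, 0.15 and 0.30 with groups that overlapped. The change of Cyp3a59 was 0.01 without control liver 1, and that of Cyp3a44, a gene under 1 FPKM, was 0.12 without control liver 2 and 0.80 with a pseudocount of 0.1.

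Cyp2e1, which oxidises ethanol, acetaminophen and fatty acids, made up 23.6% of the members' FPKM. It was at 3547, 2715 and 2672 FPKM in controls and at 3269, 3739 and 3804 in lipophagy livers. Control liver 1 lay above lipophagy liver 1, so the groups overlapped, and the log2 change was 0.28 with an interval from -0.03 to 0.60. It was 0.14 with quantile normalization.

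The 9 Cyp2d genes had a summed FPKM of 1657, 1675 and 1678 in controls and of 1993, 2161 and 1899 in lipophagy livers, without overlap. All 7 tested genes had a change above 0, against 54.5% of all tested genes and 86% of the other genes at 100 FPKM or more. With quantile normalization Cyp2d13 was at -0.07 and Cyp2d26 at -0.0045. Cyp2d10 was at 420, 440 and 442 FPKM in controls and at 585, 564 and 506 in lipophagy livers, with little spread in either group. Its log2 change was 0.34 (interval 0.14 to 0.55, adjusted p by limma 0.144). Cyp2d10 shared 12.3% of its stretches, mostly with Cyp2d11, which was under the level tested. Cyp2d9, a male-predominant steroid hydroxylase, was at 632, 635 and 666 FPKM in controls and at 671, 913 and 762 in lipophagy livers. The lowest lipophagy liver was only just above the highest control, and the log2 change of 0.27 had an interval from -0.01 to 0.55. It was 0.15 without lipophagy liver 2 and 0.06 with quantile normalization. The other 5 (Cyp2d12, Cyp2d13, Cyp2d22, Cyp2d26 and Cyp2d40) ranged from 0.06 to 0.29, with groups that overlapped. Cyp2d40 was at 0.02 without lipophagy liver 2 and at 0.51 without lipophagy liver 3. Without lipophagy liver 3 Cyp2d13 was at -0.05.

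Cyp2a had the ratio of summed FPKM nearest to 1 among the abundant subfamilies, while the median log2 change of its 4 genes was 0.26. Their summed FPKM was 1633 ± 82.2 in control and 1691 ± 247 in lipophagy livers (SD, n = 3), a ratio of 1.04. Most of it was Cyp2a5, which hydroxylates coumarin and nicotine, at 1103, 1209 and 1273 FPKM in controls and at 930, 1495 and 1088 in lipophagy livers. The lipophagy livers lay on both sides of the controls, and the log2 change was -0.06 with an interval from -0.44 to 0.33. It was -0.26 with quantile normalization. Cyp2a5 was the only one of the 18 members at 100 FPKM or more with a change below 0, and the sign turned, to 0.10, without lipophagy liver 1. Cyp2a12, a steroid and bile acid hydroxylase, was at 413, 424 and 410 FPKM in controls and at 546, 447 and 481 in lipophagy livers. The groups did not overlap, with a log2 change of 0.24 (interval 0.01 to 0.46, adjusted p by limma 0.243). That change was 0.16 without lipophagy liver 1 and 0.02 with quantile normalization. Cyp2a4, a steroid hydroxylase nearly identical to Cyp2a5, and Cyp2a22 had changes of 0.29 and 0.42 with groups that overlapped, and 11.2% of the stretches of Cyp2a4 were shared with Cyp2a5. The change of Cyp2a4 was 0.16 without control liver 3, and that of Cyp2a22 was 0.19 without lipophagy liver 1 and 0.66 without lipophagy liver 2.

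Cyp2j5, an arachidonic acid epoxygenase, was the most even of the higher members. It was at 115, 116 and 116 FPKM in controls and at 154, 146 and 151 in lipophagy livers. The gap between the groups was several times the spread within either of them (control 116 ± 0.917, lipophagy 150.03 ± 4.09 FPKM, SD, n = 3). The log2 change was 0.37 with an interval of 0.21 to 0.54 and an adjusted p by limma of 0.119. Cyp2j6 and Cyp2j9 had log2 changes of 0.09 and 0.04. With quantile normalization Cyp2j6 was at -0.028. Cyp2j9 was at -0.118 without control liver 3 and at 0.155 without control liver 1.

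Cyp2f2, which activates naphthalene and is made by periportal hepatocytes, was at 594, 590 and 568 FPKM in controls and at 725, 615 and 755 in lipophagy livers. The groups did not overlap, with a log2 change of 0.25 (interval 0.02 to 0.49, adjusted p by limma 0.238) that was 0.04 with quantile normalization. Cyp1a2, which oxidises caffeine and is induced through AhR, was at 350, 359 and 341 FPKM in controls and at 405, 545 and 336 in lipophagy livers. Lipophagy liver 3 was below all controls, and the log2 change was 0.26 with an interval from -0.11 to 0.64. It was 0.07 without lipophagy liver 2, 0.42 without lipophagy liver 3 and 0.05 with quantile normalization. Cyp2g1, known from olfactory tissue, was near 1.57 FPKM and had a change of -0.05.

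**Figure D3:**
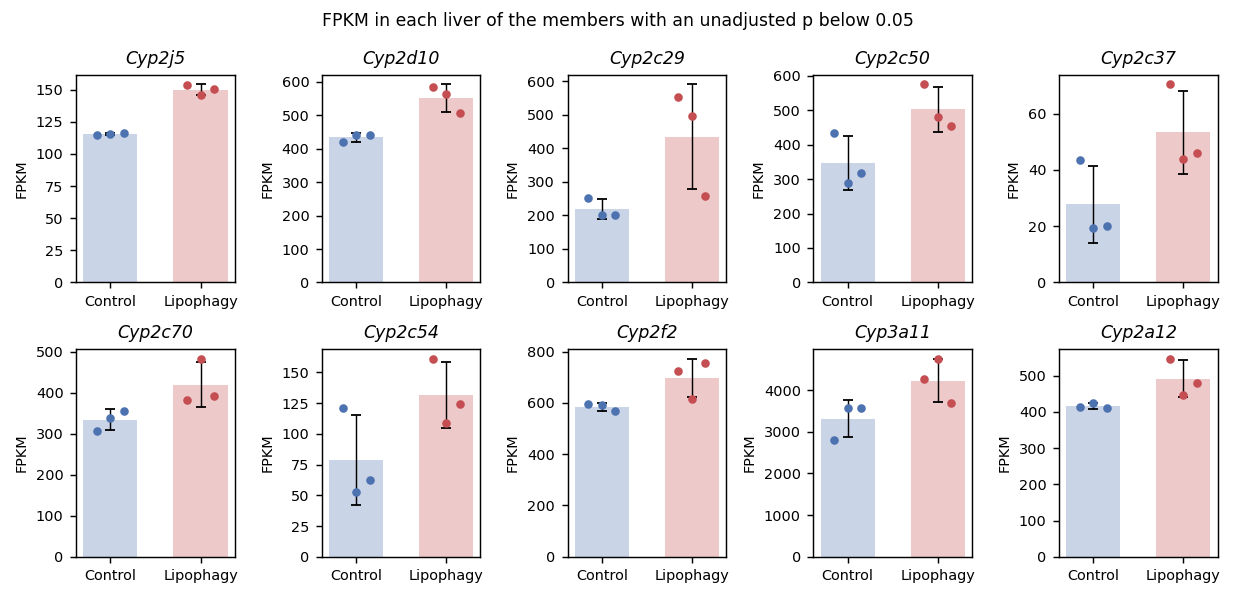
FPKM in each liver (points, in the order of replicate number) of the 10 members with an unadjusted p below 0.05, with the group mean (bar) and SD (error bar) for 3 control and 3 lipophagy livers. The groups are separate in 9 of the 10, and in Cyp2c54 control liver 1 reaches 121 FPKM, above lipophagy liver 2 at 109.

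Cyp2b genes were low. Cyp2b10, the classical target of CAR, was at 0.694, 0.561 and 0.409 FPKM in controls and at 1.86, 0.583 and 0.773 in lipophagy livers, with overlapping groups and a log2 change of 0.37. The change of Cyp2b10 was 0.11 without lipophagy liver 1 and 0.71 with a pseudocount of 0.1. Cyp2b9, a female-predominant member, was at 4.01, 0.537 and 0.188 FPKM in controls and at 11.0, 0.406 and 1.48 in lipophagy livers. The livers numbered 1 were the high ones in both groups, and the log2 change of 0.73 had an interval from -1.10 to 2.56 and turned to -0.165 without lipophagy liver 1.

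**Figure D4:**
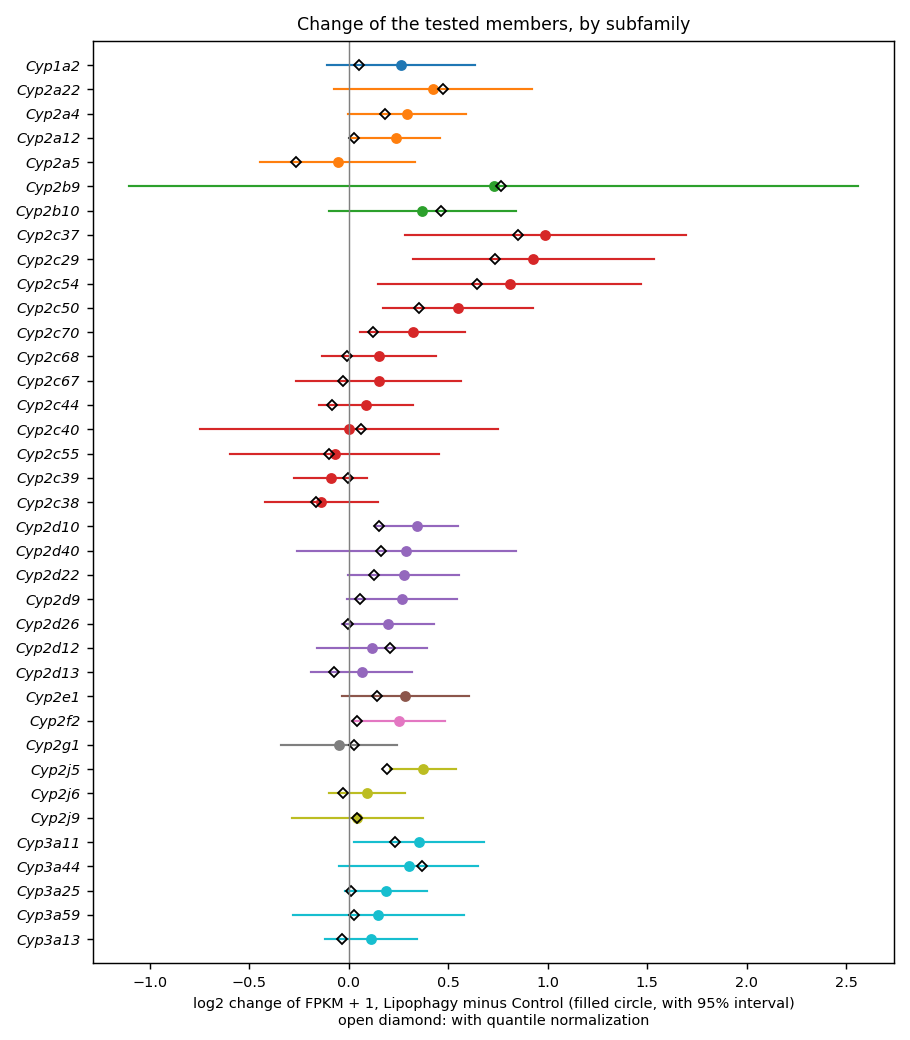
Log2 change between lipophagy and control livers (filled circles, with 95% intervals from limma) of the 37 tested members, coloured by subfamily, with the value under quantile normalization as an open diamond. Of the circles 32 lie above 0, and of the diamonds 11 lie below 0.

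Grouped by what is known of them, the 8 pericentral members (Cyp1a2, Cyp2a5, Cyp2c29, Cyp2c37, Cyp2c50, Cyp2c54, Cyp2e1 and Cyp3a11) had a median log2 change of 0.45, with 7 above 0 and 5 higher at an unadjusted p below 0.05. All but Cyp2c37 were at 100 FPKM or more, where 35.4% of the genes outside the families were higher at that p, against 11.5% of all tested genes. The Cyp2c genes of this list were those with the largest changes above, and Cyp1a2, Cyp2e1, Cyp3a11 and Cyp2a5 were at 0.26, 0.28, 0.35 and -0.06. The median of 0.45 therefore does not stand apart from the Cyp2c result. Beside these members, 8 pericentral marker genes outside the families had a median of 0.10, with 2 higher at an unadjusted p below 0.05, Slc1a2 (0.54) and Oat (0.21). The 7 periportal marker genes had a median of 0.41, with 3 higher, Ass1 (0.72), Pck1 (0.74) and Sds (0.78), and none of the markers of either zone had an adjusted p below 0.05. With quantile normalization the medians were 0.29 for the pericentral members, -0.06 for the pericentral markers and 0.26 for the periportal markers. Of the 4 members induced through CAR or PXR, Cyp2c29 and Cyp3a11 were higher at an unadjusted p below 0.05, Cyp2b10 was not, and Cyp2c55 had a change below 0. Both higher genes were at 100 FPKM or more, where 35.4% of the genes outside the families were higher. With quantile normalization Cyp3a11 was at 0.23 and no longer past that p. Of 9 female-predominant members 4 were tested (Cyp2a4, Cyp2b9, Cyp2c40 and Cyp3a44), and the groups overlapped in each of them.

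The partners of the enzymes were followed as well. Of 6 electron donors and membrane partners, 2 were higher at an unadjusted p below 0.05, Cyb5a (log2 change 0.25) and its reductase Cyb5r3 (0.19). The share was 11.5% of all tested genes and 35.4% of the genes outside the families at 100 FPKM or more. The median of the list was 0.16, and -0.02 with quantile normalization. Por was at 94.3, 99.9 and 121 FPKM in controls and at 93.1, 116 and 176 in lipophagy livers, with overlapping groups and a change of 0.24. Of 9 tested receptors and regulators, Nr1i3, which encodes CAR, was higher. It was at 43.0, 40.2 and 42.6 FPKM in controls and at 49.4, 49.0 and 49.5 in lipophagy livers, groups that did not overlap, with a log2 change of 0.23 and an adjusted p by limma of 0.176. Arnt, the partner of AhR, was lower, with a log2 change of -0.29 (adjusted p by limma 0.221). Nr1i2, which encodes PXR, and Hnf4a had changes of 0.28 and 0.10 with overlapping groups.

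Haem is built into every P450. Alas1, the rate-limiting enzyme of its synthesis, was at 168, 107 and 60.4 FPKM in controls and at 79.0, 87.5 and 152 in lipophagy livers, a spread that covered both groups. Hmox1, the inducible haem oxygenase, was at 24.6, 22.1 and 21.7 FPKM in controls and at 16.3, 16.2 and 17.8 in lipophagy livers, below every control. Its log2 change was -0.42 and its adjusted p by limma 0.124. The constitutive Hmox2 (0.30) and Blvra (0.26), a biliverdin reductase, were listed in the opposite direction, with groups that did not overlap.

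Outside families 1, 2 and 3, 26 of 46 other P450 genes were tested, with a median log2 change of 0.10 (0.02 with quantile normalization), 6 higher and 2 lower at an unadjusted p below 0.05, against 11.5% and 7.97% of all tested genes. The largest changes above 0 were in fatty acid hydroxylases of family 4. Cyp4a10 was at 39.1, 25.0 and 28.0 FPKM in controls and at 91.4, 57.4 and 60.4 in lipophagy livers, a log2 change of 1.15 (adjusted p by limma 0.112), larger than that of any of the 37 tested members. Cyp4a14 had a change of 1.03 and Cyp26a1, which breaks down retinoic acid, of 0.61. Lipophagy liver 1 was by far the highest for both, at 51.8 FPKM of Cyp4a14 against 17.5 and 18.5 in the other lipophagy livers and at 28.0 FPKM of Cyp26a1 against 12.5 and 17.6. Cyp4a12a had a change of 0.72, Cyp4f14 of 0.36 and Cyp4v3 of 0.20, and the lower ones were Cyp4f18 (-0.58) and Cyp21a1 (-0.35).

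Markers of other cell types were measured beside these results. At an unadjusted p below 0.05, 11.5% of all tested genes were higher and 7.97% lower. Of the genes outside the families at 100 FPKM or more, 35.4% were higher. The 7 hepatocyte markers, Alb among them, had a median log2 change of 0.22 (0 with quantile normalization). Of these 2 were higher at an unadjusted p below 0.05, and Apoa1 (-0.06) and Apob (-0.03) were below 0. The summed FPKM of the list was 64455 to 74010 in controls and 78400 to 101632 in lipophagy livers. The 8 stellate cell markers had a median of -0.33 (-0.26 with quantile normalization), with 5 lower at an unadjusted p below 0.05. Their summed FPKM was 47.3 to 51.9 in controls and 31.6 to 37.3 in lipophagy livers. The 8 macrophage markers had a median of -0.18 (-0.34 with quantile normalization), with 2 lower and sums of 525 to 711 against 522 to 648. The 6 bile duct markers had a median of -0.50 (-0.42 with quantile normalization), with 0 at an unadjusted p below 0.05 and sums of 138 to 248 against 92.5 to 198. Sums for 6 endothelial markers were 21.3 to 27.2 against 25.6 to 41.5, and for 6 lymphocyte markers 2.45 to 3.03 against 1.92 to 2.28, and 0 genes of these lists were at 0 in all livers. Alb gave most of the hepatocyte sums, Lyz2 of the macrophage sums and Spp1 of the bile duct sums, so these sums mainly follow a single gene. The part of cell composition in the change of the members was not tested.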

How the data were processed

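Poly(A) RNA of 3 control and 3 lipophagy livers was read as paired 100-base reads. The authors deposited FPKM values per gene symbol and liver, scaled to transcript length and mapped fragments. The submitters' processing notes name TopHat2 2.0.13, Bowtie2 2.2.3, SAMtools 0.1.19, Cufflinks 2.2.1 and mm10, and the annotation is not given in the sources used here. Count models need whole fragments and were therefore not fitted to FPKM. How reads shared by close copies were divided is not given either, which bears on every clustered gene.

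The 11493 genes averaging 0.5 FPKM or more were tested on log2(FPKM + 1), a scale that understates changes of low genes, with limma 3.58.1 in R 4.3.3 (moderated variance with a trend, no covariates, two-sided) and Benjamini-Hochberg adjustment over all of them. The members and lists were chosen with earlier results of these data known. The livers of a group were taken as replicates because the labels number them so, and p-values measure only the spread between these livers. Total depth is unknown. From the steps of low FPKM values, depth relative to control liver 1 was 0.856 to 1.27. Spearman correlations between livers were 0.980 to 0.991. The fit was first tested on simulated data.

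Named members were those with an unadjusted p below 0.05 and, in each subfamily, the largest changes in each direction and the most abundant gene, 18 in all, and other members are given by group. Cyp2b10, Cyp3a25, Por, Nr1i2, Cyp4a14, Cyp26a1 and the low members were named after their values had been seen. Some results are not reported here. All 54 members matched RefSeq, 1 by synonym (Cyp2c44), and 47 had a promoter sequence. Shared 100-base stretches were counted between GENCODE transcripts on GRCm38 for 53 members. Tables and plots used Python 3.11.15, pandas 2.3.3, Biopython 1.88 and matplotlib 3.10.9. Alternatives were 2 other pseudocounts (0.1 and 0.5), no filter or filters of 0.1 and 1 FPKM, quantile normalization, a common median for all livers, limma with no variance trend, a replicate block, and leaving out each liver.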

Additional observations from a re-analysis of the deposited data

How the results depend on the processing

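Of 270 values of the 18 named members under 15 alternatives, 263 kept their direction and their side of the adjusted threshold. No member passed that threshold in the main fit, so most values kept their side by staying above it. For the 10 members with an unadjusted p below 0.05, 0 of 150 values reversed. These 10 were picked by their change in the same livers, so few reversals could occur and the count is no support. The median log2 change of the tested members, 0.25 in the report, was 0.149 with no filter on low values, 0.058 with quantile normalization and 0.166 to 0.249 with 1 liver left out (lowest without lipophagy liver 1). With quantile normalization 5 members were higher at an unadjusted p below 0.05, 4 of them among the 10. Leaving out 1 liver gave 6 to 13 such members, with 6 without control liver 2, and 0 to 1 members with an adjusted p below 0.05, the 1 being Cyp2c29 without lipophagy liver 3. Leaving out 1 liver moved the log2 change of Cyp2a5 between -0.246 and 0.0967, that of Cyp2b9 between -0.165 and 1.38 and that of Cyp2g1 between -0.133 and 0.0712, with reversals without lipophagy liver 1 (all 3 genes) and, for Cyp2g1, without control liver 1. Quantile normalization also reversed Cyp2g1, to 0.0268. The causes were not tested.

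With a replicate block, 14 members were higher at an unadjusted p below 0.05 and 1 member, Cyp2c37, had an adjusted p by limma of 0.0211. The numbers do not pair the livers by the labels, and the deviations of same-numbered livers correlated at 0.25, 0.23 and -0.06, so the block was not used. Relative depth limits the low members most, and changes of genes under 1 FPKM rest on few fragments.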

Other observations

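Of the 11 members above 0 but under the tested level, 10 could be turned into estimated fragments, the smallest whole numbers in the ratio of their FPKM values and relative depths, so that true numbers may be multiples of these. Cyp2b13, a female-predominant gene, came to 3, 0 and 0 fragments in controls and 3, 2 and 0 in lipophagy livers. Cyp3a16, expressed mainly before adulthood and in females, came to 2, 5 and 6 fragments against 5, 4 and 2. Cyp2c69, also female-predominant, came to 4, 12 and 33 fragments in controls and 11, 14 and 6 in lipophagy livers, so the controls alone spanned the lipophagy values, and 36.3% of its 100-base stretches occur in other transcripts. Cyp3a41a was at 2, 2 and 0 against 2, 1 and 0 fragments, while its near copy Cyp3a41b was listed at 0 everywhere. Since 90.8% of the stretches of Cyp3a41a occur in another transcript, the 2 genes cannot be told apart here. For Cyp1a1, the classical AhR target, no such estimate could be made, and it was at 0.380, 0.560 and 0.404 FPKM in controls and at 0.395, 0.617 and 0.635 in lipophagy livers, groups that overlapped.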
